A study of Mus musculus with 18 samples.

Results

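The genes of the unfolded protein response and the integrated stress response were examined in adipose tissue of mice that lack CSN8 in adipocytes. They were 43 genes taken by symbol from a list of known pathway members, out of 55487 genes counted in each library. By role they were 14 chaperones and folding enzymes of the endoplasmic reticulum (ER), 8 genes of ER-associated degradation, 3 stress sensors, 5 transcription factors, 5 signaling targets and 6 metabolic enzyme targets of the factor ATF4, and 2 secreted stress hormones. RNA was sequenced from subcutaneous white adipose tissue (sWAT) of 4 Ctrl and 4 Csn8AKO male mice at 12 weeks of age, and from brown adipose tissue (BAT) of 5 Ctrl and 5 Csn8AKO male mice at 4 weeks of age. Ctrl mice were Csn8 f/f littermates. Csn8AKO mice carried the same floxed alleles together with Adipoq-Cre, in which the adiponectin promoter drives Cre recombinase, so the deletion was aimed at mature adipocytes and left the other cells of the depot with an intact gene. All the mice ate chow and were fasted briefly before tissue was taken. Tissue and age changed together between the sWAT and BAT sets, so effects of the 2 cannot be told apart.

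CSN8 is a subunit of the COP9 signalosome, which removes the ubiquitin-like protein NEDD8 from cullins and so regulates a large family of ubiquitin ligases. When unfolded protein gathers in the ER, the sensors IRE1 (gene Ern1), PERK (Eif2ak3) and ATF6 start the unfolded protein response. IRE1 splices Xbp1 mRNA and cleaved ATF6 enters the nucleus, and the spliced XBP1 and ATF6 proteins raise chaperones and the machinery that returns misfolded proteins to the cytosol for degradation. PERK, like other kinases of the integrated stress response, phosphorylates eIF2α, which lowers general translation but favors that of ATF4. ATF4 then raises genes of amino acid synthesis and uptake, one-carbon metabolism and feedback control, and the hormones GDF15 and FGF21. Much of this regulation acts on splicing, cleavage and translation, which a count of reads per gene does not record.

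Between 15835721 and 23109603 reads were counted per sWAT library and between 26658593 and 66719937 per BAT library. Levels below are CPM, the count of a gene as a share of all counts on a fixed scale, after scaling by TMM factors, which correct library size for composition, and were scaled separately in each tissue. Cops8, the gene for CSN8, lay between 33.9 and 36.2 CPM in sWAT Ctrl and between 29.2 and 36.1 CPM in sWAT Csn8AKO, and its log2 change of -0.12 did not pass (edgeR quasi-likelihood test, adjusted p = 0.623). In BAT it lay between 36.5 and 44.6 CPM in Ctrl and between 28.2 and 36.9 CPM in Csn8AKO, and fell by 0.30 (adjusted p = 0.0211). The count takes reads from exons outside the deleted stretch and from cells without Cre, so it is a weak check of the labels. Ucp1, the brown fat uncoupling protein, averaged 2780 CPM in BAT Ctrl and 2.04 CPM in sWAT Ctrl, as the tissue labels say.

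Libraries differed in what else they held. Summed markers of macrophages lay between 682 and 947 CPM in sWAT Ctrl and between 1120 and 1920 CPM in sWAT Csn8AKO, with 7 of 10 markers called higher. In BAT they lay between 88.0 and 119 CPM in Ctrl and between 267 and 332 CPM in Csn8AKO, with 10 of 10 called higher. The 6 fibroblast and progenitor markers all rose in BAT, from a summed 1010 to 1730 CPM up to 2680 to 4600 CPM, and 0 of 6 were called in sWAT, 4 of them at an unadjusted p under 0.05. In sWAT all 8 adipocyte markers had a log2 change below 0, with 5 at an unadjusted p under 0.05 and 2 called lower. Their summed level lay between 9530 and 14300 CPM in Ctrl and between 4210 and 9340 CPM in Csn8AKO. Skeletal muscle markers summed to 107 and 190 CPM in BAT Csn8AKO 1 and 5 and to at most 2.99 CPM in the other 8 BAT libraries. In sWAT they summed to 2830 CPM in Ctrl 3 and 1680 CPM in Csn8AKO 4, and to at most 493 CPM in the other 6 libraries. T cell markers summed to 194 CPM in sWAT Ctrl 1 and 260 CPM in sWAT Csn8AKO 2 and to at most 22.5 CPM in the other 6 of sWAT. Genes of ribosomal RNA took 33.6% and 50.6% of the reads of sWAT Csn8AKO 3 and 4, against 1.92% to 21.2% in the other sWAT libraries. In bulk tissue, fewer cells of a type and less RNA per cell cannot be told apart, and the part of these shifts in the results below was not tested beyond the values given beside them.

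Promoters of the members were searched for the sequences through which the pathway's factors are known to act. RefSeq promoters (build GRCm38.p6, from 250 bases before to 50 bases after the gene start) were at hand for 38 of the 43 genes, as 43 promoters because 5 genes have 2 starts. Both strands were searched for 4 motifs: ERSE, the element bound by ATF6 with NF-Y (CCAAT, 9 bases, CCACG), ERSE-II (ATTGG, 1 base, CCACG), the core of the XBP1 element UPRE (TGACGTGG) and CARE, the element bound by C/EBP-ATF dimers such as those of ATF4 (TGATG, 1 base, AA). The motifs share letters: ATTGG is the other strand of CCAAT, and the last part of the UPRE core is the other strand of CCACG. ERSE was found in 9 of the 38 genes and in 0.119% of all 32851 promoters. ERSE-II was found in 2 of the genes and in 0.0365% of all promoters, CARE in 6 of the genes and in 3.97%, and the UPRE core in 0 of the genes and in 0.676%. Of the 38 genes, 22 held none of the 4 motifs. A match is a description of the letters in this window and not a proven site.

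The 8 windows that follow are those of Hspa5 and of the members with a motif that changed in either tissue, printed in the direction of the gene with the motif in capitals, so that genes with like elements can be set beside their changes below. The first 3 hold ERSE, Dnajb11 holds ERSE-II, Herpud1 holds CARE and then ERSE-II, and the last 3 hold CARE.
Hspa5 (chr2:34772004-34772063, plus strand): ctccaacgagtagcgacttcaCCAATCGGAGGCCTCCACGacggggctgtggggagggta
Pdia6 (chr12:17266470-17266529, plus strand): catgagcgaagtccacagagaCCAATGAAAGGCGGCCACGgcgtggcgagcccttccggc
Syvn1 (chr19:6046511-6046570, plus strand): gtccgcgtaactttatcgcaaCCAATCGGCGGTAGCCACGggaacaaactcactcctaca
Dnajb11 (chr16:22857827-22857886, plus strand): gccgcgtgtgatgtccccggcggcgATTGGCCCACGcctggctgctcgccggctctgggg
Herpud1 (chr8:94386307-94386397, plus strand): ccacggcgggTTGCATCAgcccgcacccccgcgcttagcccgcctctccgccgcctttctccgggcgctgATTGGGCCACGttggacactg
Asns (chr6:7693199-7693258, minus strand): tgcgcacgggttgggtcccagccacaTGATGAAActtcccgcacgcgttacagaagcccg
Atf3 (chr1:191183410-191183469, minus strand): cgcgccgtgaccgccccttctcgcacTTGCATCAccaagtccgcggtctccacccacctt
Chac1 (chr2:119351023-119351082, plus strand): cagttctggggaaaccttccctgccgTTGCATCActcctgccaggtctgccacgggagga

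The motif begins 65 bases before the start of Hspa5, 98 before that of Pdia6 and 44 before that of Syvn1. It begins 23 bases before the start of Asns, 110 before that of Atf3 and 193 before that of Chac1. In Herpud1 the CARE begins 112 bases and the ERSE-II 52 bases before the start, and in Dnajb11 the ERSE-II begins 7 bases after it. The other members with ERSE were Calr, Canx, Creld2, Derl3, Dnajc3 and Hsp90b1, which holds it at 2 places, and the other members with CARE were Fgf21 and Trib3.

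In sWAT, few of these genes were called, as was so of all genes tested. Of the 41 members with enough reads to test, 0 were called higher at an adjusted p under 0.05, where 2.30% of the 18843 genes tested were called higher. The 2 called lower, Asns and Phgdh, make amino acids, and 3.00% of all genes tested were called lower. Unadjusted p was under 0.05 for 9 members and for 3838 of the 18843 genes tested. DESeq2 called 2 members higher, Atf3 and Ern1, and 3 lower, with Svip added to the pair above. It called 912 of all genes higher and 1034 lower. The median log2 change of the members was 0.17, beside 0.03 for all genes tested. Values above 0 were found for 31 of the 41 members and 10050 of the 18843 genes. Levels of 8 members did not overlap between the genotypes, 5 higher and 3 lower, which is 19.5% of those tested beside 14.0% of all genes.

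**Figure D1:**
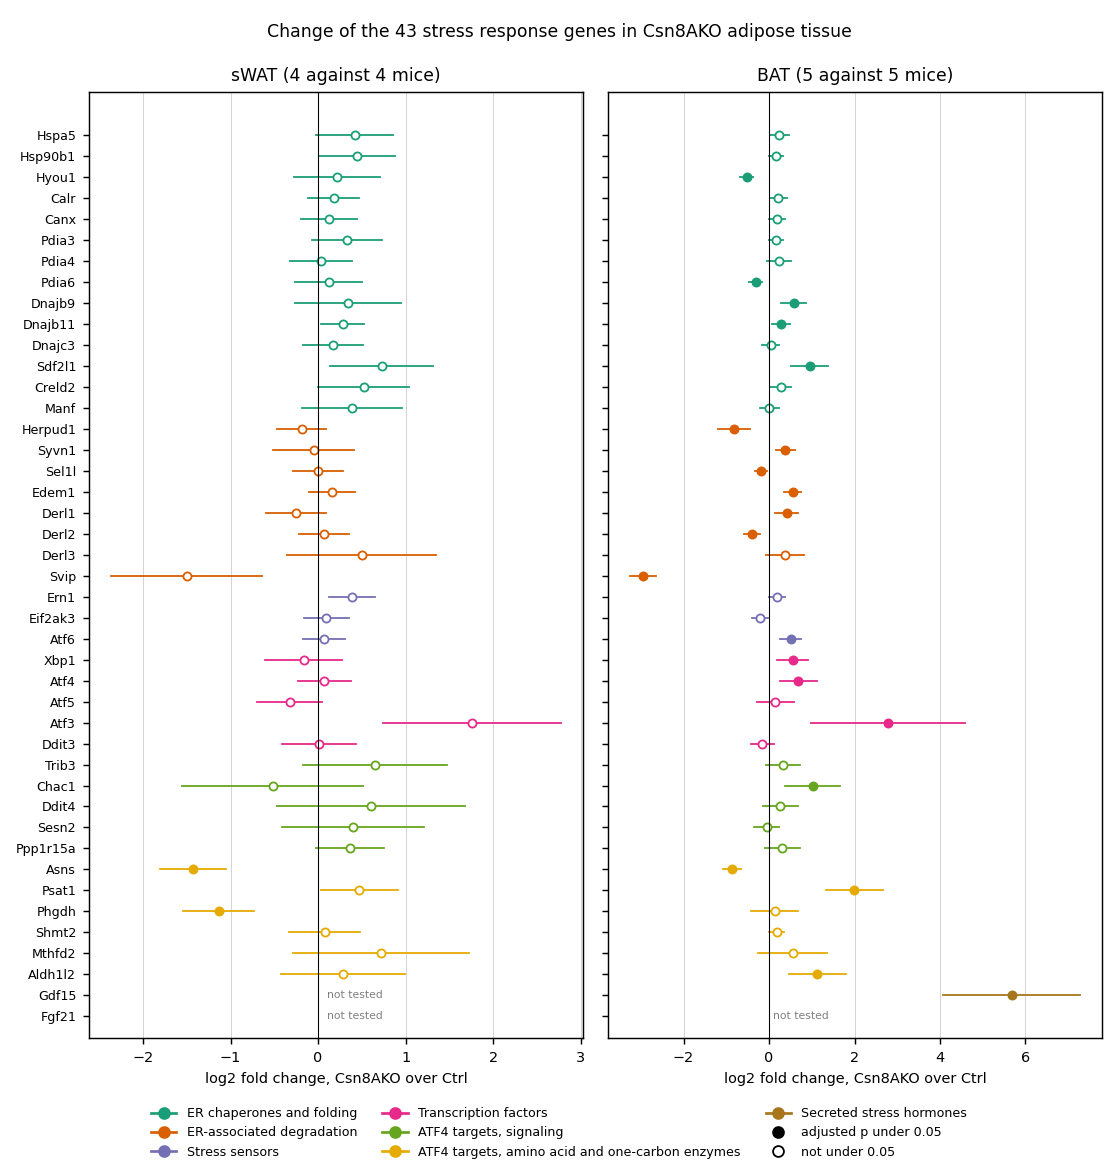
Log2 fold change of each of the 43 members in Csn8AKO over Ctrl, with its 95% confidence interval, in sWAT (left, 4 against 4 mice) and BAT (right, 5 against 5 mice); colors give the role and filled points an adjusted p under 0.05. In sWAT the 2 filled points, Asns and Phgdh, lie to the left of 0, and in BAT 14 filled points lie to the right and 7 to the left.

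All 14 chaperones and folding enzymes had a log2 change above 0 in sWAT, from 0.03 for Pdia4, a disulfide isomerase, to 0.73 for Sdf2l1, a partner of the main ER chaperone, but 0 of 14 were called, 3 had an unadjusted p under 0.05, and the smallest adjusted p was 0.157, that of Sdf2l1. Their median of 0.31 stood beside 0.03 for all genes tested. The 14 genes share libraries, and for Hspa5 and the summed level the values come largely from a pair of them. Calr, Dnajb11 and Sdf2l1 were higher in every Csn8AKO library than in any Ctrl library. Such groups without overlap were 21.4% of the chaperones beside 14.0% of all genes tested. Hspa5, the main Hsp70 chaperone of the ER also known as BiP (ENSMUSG00000026864, chr2:34771970-34777547), was at 276, 252, 257 and 276 CPM in the 4 Ctrl libraries and at 429, 446, 261 and 279 CPM in Csn8AKO 1 to 4. Csn8AKO 1 and 2 thus stood above every Ctrl library, while Csn8AKO 3 lay within the Ctrl range and Csn8AKO 4 just above it. The log2 change was 0.42 with a standard error of 0.20 (adjusted p = 0.282).

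The summed level of the 14 chaperones had the same shape, between 1580 and 1790 CPM in Ctrl and at 2360, 2210, 1720 and 1700 CPM in Csn8AKO 1 to 4. Csn8AKO 3 and 4 were the libraries rich in ribosomal RNA. Without them the log2 change of Hspa5 was 0.70 (adjusted p = 0.0806), 0 members were called higher and the median over chaperones and degradation genes was 0.35 in place of 0.17. Csn8AKO 2 was also the library rich in lymphocyte markers, and B and plasma cell markers summed to 1010 CPM in it, against 297 to 305 CPM in the other 3 Csn8AKO libraries and 108 to 421 CPM in Ctrl. Without it and Ctrl 1 the change of Hspa5 was 0.31 (adjusted p = 0.383). Hyou1, a large co-chaperone of BiP, was at 178 CPM in Csn8AKO 2 and between 84.3 and 108 CPM in the other 7 sWAT libraries.

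The 8 degradation genes were spread on both sides of 0 in sWAT, with a median log2 change of -0.03 and 0 called, 1 of them at an unadjusted p under 0.05. The lowest was Svip, the small VCP-interacting protein that inhibits ER-associated degradation, at -1.50 (SE 0.39, adjusted p = 0.0526). It was at 8.82, 15.2, 12.0 and 10.3 CPM in Ctrl and at 4.35, 1.36, 4.83 and 5.91 CPM in Csn8AKO. The highest Csn8AKO value was below the lowest Ctrl value. The change had an adjusted p of 0.0138 without Csn8AKO 2, the library lowest in Svip, of 0.0481 without Csn8AKO 4, and of 0.00264 by DESeq2. Over the 17 alternatives tried in sWAT it lay between 0.00264 and 0.155, under 0.05 in 6.

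Of the 3 sensors in sWAT, Ern1 was at 31.7 to 38.9 CPM in Ctrl and 43.3 to 49.5 CPM in Csn8AKO, which do not overlap, with a log2 change of 0.39 (adjusted p = 0.0906). The values of Eif2ak3 and Atf6 were 0.09 and 0.07. Among the transcription factors, Xbp1, the substrate of IRE1, was at 156, 101, 185 and 171 CPM in Ctrl and at 161, 115, 124 and 146 CPM in Csn8AKO. These ranges overlap almost wholly, and the log2 change of -0.16 had a 95% interval of -0.60 to 0.28. Atf4, the main factor of the integrated stress response, was at 64.6, 60.2, 63.4 and 65.0 CPM in Ctrl and at 52.8, 67.3, 65.8 and 80.0 CPM in Csn8AKO. Csn8AKO 1 lay below and the other 3 above the whole Ctrl range, and the log2 change of 0.07 had an interval of -0.23 to 0.38. Ddit3, which encodes the stress factor CHOP, was at 10.9, 12.1, 9.18 and 8.57 CPM in Ctrl and at 10.5, 12.5, 8.00 and 9.87 CPM in Csn8AKO. Its log2 change was 0.01 with an interval of -0.42 to 0.43 and its ranges overlap almost wholly.

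Atf3, a factor that many stresses raise, was at 1.99 to 11.1 CPM in sWAT Ctrl and at 14.0 to 28.1 CPM in sWAT Csn8AKO. The groups do not overlap, and the log2 change of 1.76 (SE 0.45) had an adjusted p of 0.0581 by edgeR and of 0.00111 by DESeq2. Leaving out Ctrl 1 gave an adjusted p of 0.0367 and leaving out Ctrl 2 gave 0.0363. Over 17 alternatives it lay between 0.00111 and 0.271, under 0.05 in 5. Atf5, a factor related to ATF4, had a value of -0.33 (adjusted p = 0.317).

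The 2 calls in sWAT were both in enzymes of amino acid synthesis, and both were lower in Csn8AKO. Asns, asparagine synthetase (ENSMUSG00000029752, chr6:7675169-7693254), was at 49.8, 51.3, 62.5 and 63.2 CPM in Ctrl and at 26.6, 16.2, 19.7 and 21.8 CPM in Csn8AKO. Every Csn8AKO library was below every Ctrl library, and the log2 change was -1.43 (SE 0.17, adjusted p = 0.00254). Phgdh, the first enzyme of serine synthesis (ENSMUSG00000053398, chr3:98313170-98339990), was at 172, 251, 198 and 224 CPM in Ctrl and at 109, 71.0, 111 and 93.8 CPM in Csn8AKO. These groups also did not overlap, and the log2 change was -1.14 (SE 0.18, adjusted p = 0.00815). Without Csn8AKO 3 and 4 the change of Asns was -1.42 (adjusted p = 0.0398) and that of Phgdh was -1.25 (adjusted p = 0.0560). Csn8AKO 2, the library lowest in Asns, Phgdh and Svip, was also the lowest in summed adipocyte markers, at 4210 CPM against 7760 to 9340 CPM in the other 3 Csn8AKO libraries. Without it the change was -1.32 for Asns (adjusted p = 0.00158) and -1.01 for Phgdh (adjusted p = 0.00517). The part of the adipocyte markers in these changes was not tested further. Both genes were called in each fit that left out 1 library, Asns was called in 17 of 17 alternatives and Phgdh in 15.

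The other 4 enzymes had values above 0 that did not pass. Psat1, the second enzyme of serine synthesis, had a log2 change of 0.47 (adjusted p = 0.213), Mthfd2, a mitochondrial folate enzyme, 0.72, Aldh1l2, another mitochondrial folate enzyme, 0.28, and Shmt2, which passes carbon from serine to folate, 0.08. The 5 signaling targets also did not pass, 0 of them at an unadjusted p under 0.05, with values from -0.52 for Chac1, which degrades glutathione, to 0.65 for Trib3, a pseudokinase that restrains ATF4. Over the 11 tested genes of the ATF4 target and hormone list the median was 0.37, beside 0.17 for the 22 chaperones and degradation genes. Without Csn8AKO 3 and 4 these medians were -0.02 and 0.35, so their order depended on those libraries.

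The hormones were barely expressed in sWAT and had too few reads to test. Gdf15, a stress hormone that acts on the hindbrain to lower food intake, was at 0.272, 0.608, 0.948 and 0.363 CPM in Ctrl and at 0.463, 0.724, 1.86 and 0.748 CPM in Csn8AKO, and the ranges overlap. Fgf21, a hormone of fasting and mitochondrial stress, was at 0.810 CPM in Ctrl 2, 0.0592 CPM in Ctrl 3 and had no read in Ctrl 1 and 4. It was at 0.0926 and 0.0689 CPM in Csn8AKO 1 and 3 and had no read in Csn8AKO 2 and 4.

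In BAT, 21 of the 42 members tested were called. Of these, 14 were higher, where 16.0% of the 22345 genes tested were called higher, and 7 were lower, where 15.8% of all genes were called lower. Unadjusted p was under 0.05 for 28 members and for 9321 of the 22345 genes tested. The median log2 change was 0.23, beside 0.01 for all genes tested. Values above 0 were found for 32 of the 42 members and 11286 of the 22345 genes. Levels of 11 members did not overlap between the genotypes, 5 higher and 6 lower, which is 26.2% of those tested beside 21.0% of all genes. The members called higher and those without overlap include Gdf15, which passed the filter on low counts through the Csn8AKO group. BAT had 5 mice a group and deeper libraries than sWAT, and the difference between tissues was tested gene by gene below.

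**Figure D2:**
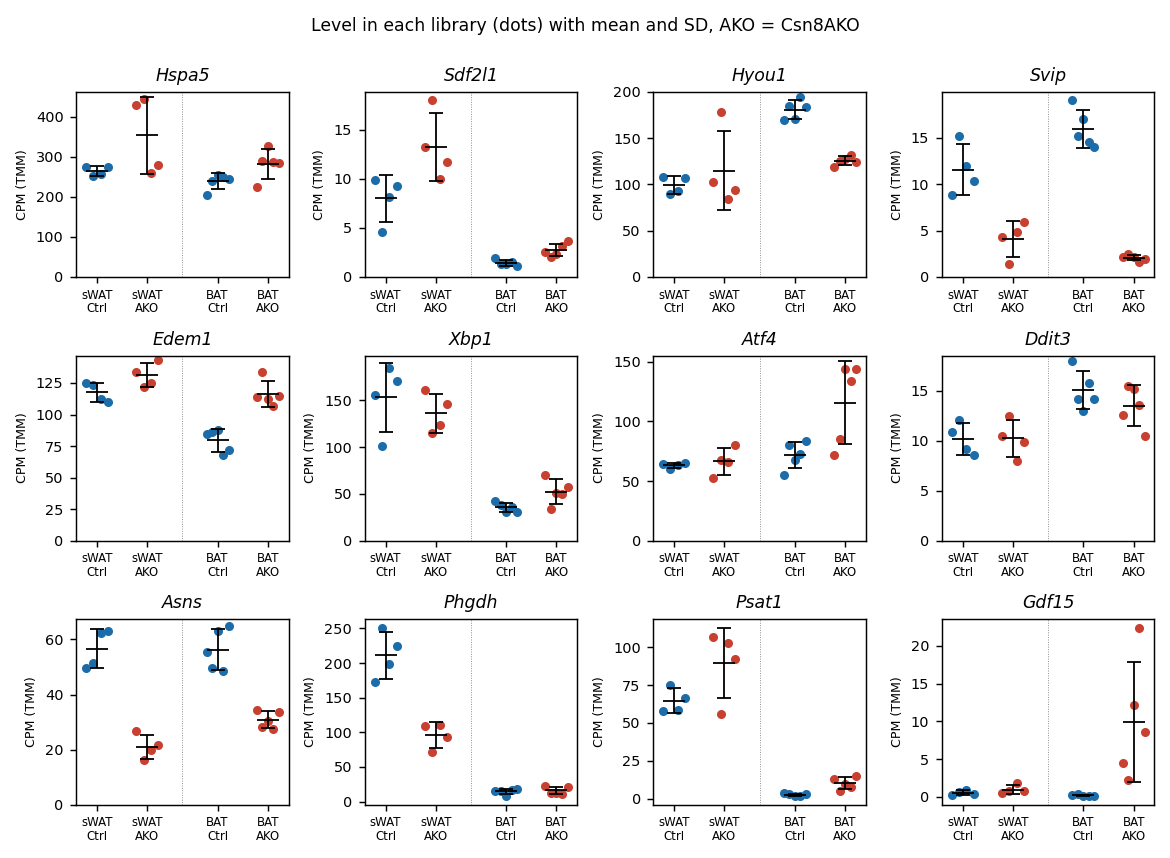
Level of 12 members in each library (dots, blue for Ctrl and red for Csn8AKO) in CPM on a linear axis, with the mean (long dash) and SD (bars) of each group; AKO stands for Csn8AKO, and sWAT and BAT were scaled separately. Svip and Asns are lower in every Csn8AKO library of both tissues, Phgdh is lower in every sWAT Csn8AKO library, and Gdf15 is higher in every BAT Csn8AKO library.

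Of the 14 chaperones of BAT, 12 had a log2 change above 0, and calls went in both directions. Sdf2l1, Dnajb9 and Dnajb11, all partners of BiP, rose and Hyou1 and Pdia6 fell, while the other 9 of 14 were not called. Over all genes tested, 16.0% rose and 15.8% fell. Hspa5 was at 206, 241, 255, 249 and 246 CPM in Ctrl and at 224, 289, 327, 288 and 284 CPM in Csn8AKO. Csn8AKO 2 to 5 stood above every Ctrl library and Csn8AKO 1 lay within their range. The log2 change was 0.24 (SE 0.10, adjusted p = 0.0964), and it had an adjusted p of 0.0190 without Csn8AKO 1 and of 0.0380 without Csn8AKO 1 and 5, the libraries with skeletal muscle markers. Over the 18 alternatives tried in BAT it lay between 0.0190 and 0.296, under 0.05 in 3. Sdf2l1 was at 1.91, 1.32, 1.34, 1.53 and 1.06 CPM in Ctrl and at 2.56, 2.05, 2.30, 3.15 and 3.64 CPM in Csn8AKO. All the Csn8AKO libraries were above all the Ctrl libraries, and the log2 change was 0.95 (SE 0.21, adjusted p = 0.00298).

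Dnajb9 rose by 0.58 (adjusted p = 0.00615) and Dnajb11 by 0.28 (adjusted p = 0.0367). The call of Dnajb11 was near the threshold and was lost in 7 of the 10 fits that left out 1 library, with adjusted p up to 0.0865, that without Csn8AKO 3. Dnajb9 had an adjusted p of 0.0612 when all 4 groups of the study were fitted together. Hyou1 was at 169, 185, 171, 194 and 184 CPM in Ctrl and at 119, 125, 127, 132 and 124 CPM in Csn8AKO. The ranges are far apart beside their spread, and the log2 change was -0.53 (SE 0.07, adjusted p = 9.99e-05). Pdia6, a disulfide isomerase, was at 91.6, 87.9, 90.5, 95.3 and 78.1 CPM in Ctrl and at 73.6, 72.9, 69.4, 66.0 and 74.8 CPM in Csn8AKO. The groups do not overlap, and the log2 change was -0.31 (SE 0.07, adjusted p = 0.00484). Scaling by library size alone, which raised the median log2 change of all genes in BAT from 0.01 to 0.14, gave an adjusted p of 0.220 for Pdia6.

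The other chaperones of BAT had values from 0.01 for Manf, a secreted ER protein, to 0.27 for Creld2. Calr, Canx, Pdia3 and Creld2 had unadjusted p between 0.0318 and 0.0437, and adjusted p between 0.0847 and 0.108. Per kilobase of gene length, the most abundant chaperones in BAT Ctrl were Calr, a calcium-binding lectin, at 83.6 CPM per kb, Hspa5 at 56.6 and Canx, its membrane-bound relative, at 47.3, and the least abundant was Sdf2l1 at 1.29.

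Of the 8 degradation genes in BAT, 3 rose and 4 fell, where 16.0% of all genes tested rose and 15.8% fell. Derl3 was not called. Svip (ENSMUSG00000074093, chr7:51997171-52006018) was at 19.1, 15.2, 17.0, 14.6 and 14.0 CPM in Ctrl and at 2.19, 2.48, 2.17, 1.66 and 1.94 CPM in Csn8AKO. The highest Csn8AKO value was far below the lowest Ctrl value, and the log2 change was -2.95 (SE 0.14, adjusted p = 1.54e-08), the smallest adjusted p among the members tested in BAT. It was -2.95 without Csn8AKO 1 and 5 (adjusted p = 1.55e-06). Herpud1, a ubiquitin-like membrane protein of the degradation complex, was at 85.5, 74.6, 104, 101 and 65.5 CPM in Ctrl and at 44.4, 71.5, 42.8, 46.7 and 39.3 CPM in Csn8AKO. All Csn8AKO libraries other than Csn8AKO 2 were below the Ctrl range, and the log2 change was -0.82 (SE 0.17, adjusted p = 0.00359).

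Derl2, a channel-forming derlin, was at 26.7, 25.9, 27.7, 26.7 and 26.2 CPM in Ctrl and at 21.5, 22.7, 20.0, 18.6 and 18.1 CPM in Csn8AKO. The Ctrl libraries were within a narrow range and the Csn8AKO libraries were all below it, with a log2 change of -0.40 (SE 0.08, adjusted p = 0.00207, and 0.0546 with scaling by library size alone). Sel1l, the adaptor of the ligase HRD1, fell by 0.20 (adjusted p = 0.0312), the smallest change called among the members in BAT, and its call was lost in 7 of the 10 fits that left out 1 library, with adjusted p up to 0.101, that without Csn8AKO 5, and was 0.681 with library size alone. Edem1, a lectin that hands misfolded glycoproteins to degradation, was at 84.3, 85.9, 87.8, 67.8 and 71.6 CPM in Ctrl and at 114, 134, 112, 107 and 115 CPM in Csn8AKO. These groups do not overlap, and the log2 change was 0.55 (SE 0.09, adjusted p = 4.80e-04). Syvn1, which encodes HRD1, rose by 0.38 (adjusted p = 0.0108, and 0.0841 with the 4 groups fitted together) and Derl1, another derlin, by 0.41 (adjusted p = 0.0208, and 0.0592 without Ctrl 2, 0.0509 without Ctrl 4 and 0.0521 without Csn8AKO 3).

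Members that hold the same motif were called in both directions in BAT, where 16.0% of all genes tested were called higher and 15.8% lower. The counts for ERSE lie near these shares, and the other motifs were held by few genes. Of the 9 genes with ERSE, Syvn1 rose and Pdia6 fell, 7 were not called, and the log2 changes ran from -0.31 to 0.38 with a median of 0.22. Of the 2 genes with ERSE-II, Dnajb11 rose and Herpud1 fell. Of the 5 tested genes with CARE, Atf3 and Chac1 rose, Asns and Herpud1 fell and Trib3 was not called. Over the 22 members whose promoters hold none of the 4 motifs, 7 rose and 3 fell in BAT, with a median of 0.20. In sWAT the medians were 0.18 for ERSE, -0.19 for CARE and 0.09 for no motif.

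Of the sensors in BAT, Atf6 was at 63.1, 67.0, 84.5, 75.8 and 74.1 CPM in Ctrl and at 76.8, 117, 115, 111 and 98.2 CPM in Csn8AKO. Csn8AKO 2 to 5 were above the Ctrl range and Csn8AKO 1 was inside it, and the log2 change was 0.51 (SE 0.12, adjusted p = 0.00428). Ern1 had a value of 0.18 (adjusted p = 0.135) and Eif2ak3 one of -0.22 (adjusted p = 0.0787). Xbp1 was at 42.2, 38.6, 30.3, 36.4 and 31.2 CPM in Ctrl and at 70.0, 33.4, 50.9, 50.0 and 57.0 CPM in Csn8AKO. Csn8AKO 2 lay inside the Ctrl range and the other 4 above it. The log2 change was 0.55 (SE 0.16, adjusted p = 0.0222), and without Csn8AKO 1 and 5 it was 0.33 (adjusted p = 0.141). The adjusted p of Xbp1 was 0.0557 without Ctrl 3, 0.050 without Ctrl 5 and 0.0509 without Csn8AKO 5, and over 18 alternatives it lay between 7.20e-04 and 0.141, under 0.05 in 13.

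Atf4 was at 55.3, 79.9, 67.9, 72.6 and 83.7 CPM in BAT Ctrl and at 72.2, 85.1, 144, 134 and 144 CPM in BAT Csn8AKO. Csn8AKO 3, 4 and 5 stood far above the rest, Csn8AKO 2 just above the Ctrl range and Csn8AKO 1 inside it. The log2 change was 0.69 (SE 0.20, adjusted p = 0.0214), and the adjusted p was 0.0524 without Csn8AKO 3, 0.0524 without Csn8AKO 4 and 0.0536 without Csn8AKO 5. Over 18 alternatives it lay between 0.00238 and 0.0830, the latter with no filter on low counts, and was under 0.05 in 14. Ddit3 was at 18.0, 14.2, 13.0, 15.8 and 14.2 CPM in Ctrl and at 12.6, 15.5, 15.2, 13.6 and 10.5 CPM in Csn8AKO. The ranges overlap, and the log2 change of -0.16 had a 95% interval of -0.42 to 0.11. Atf3 rose by 2.79 (SE 0.79, adjusted p = 0.0265), from 1.02 to 5.05 CPM in Ctrl to 3.71 to 50.7 CPM in Csn8AKO. Its highest value was in Csn8AKO 5, and the change was 1.98 without Csn8AKO 1 and 5 (adjusted p = 0.0822). The adjusted p of Atf3 also passed 0.05 without Ctrl 1, 3 or 4, at 0.0598, 0.0599 and 0.0628, and was under 0.05 in 12 of 18 alternatives.

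**Figure D3:**
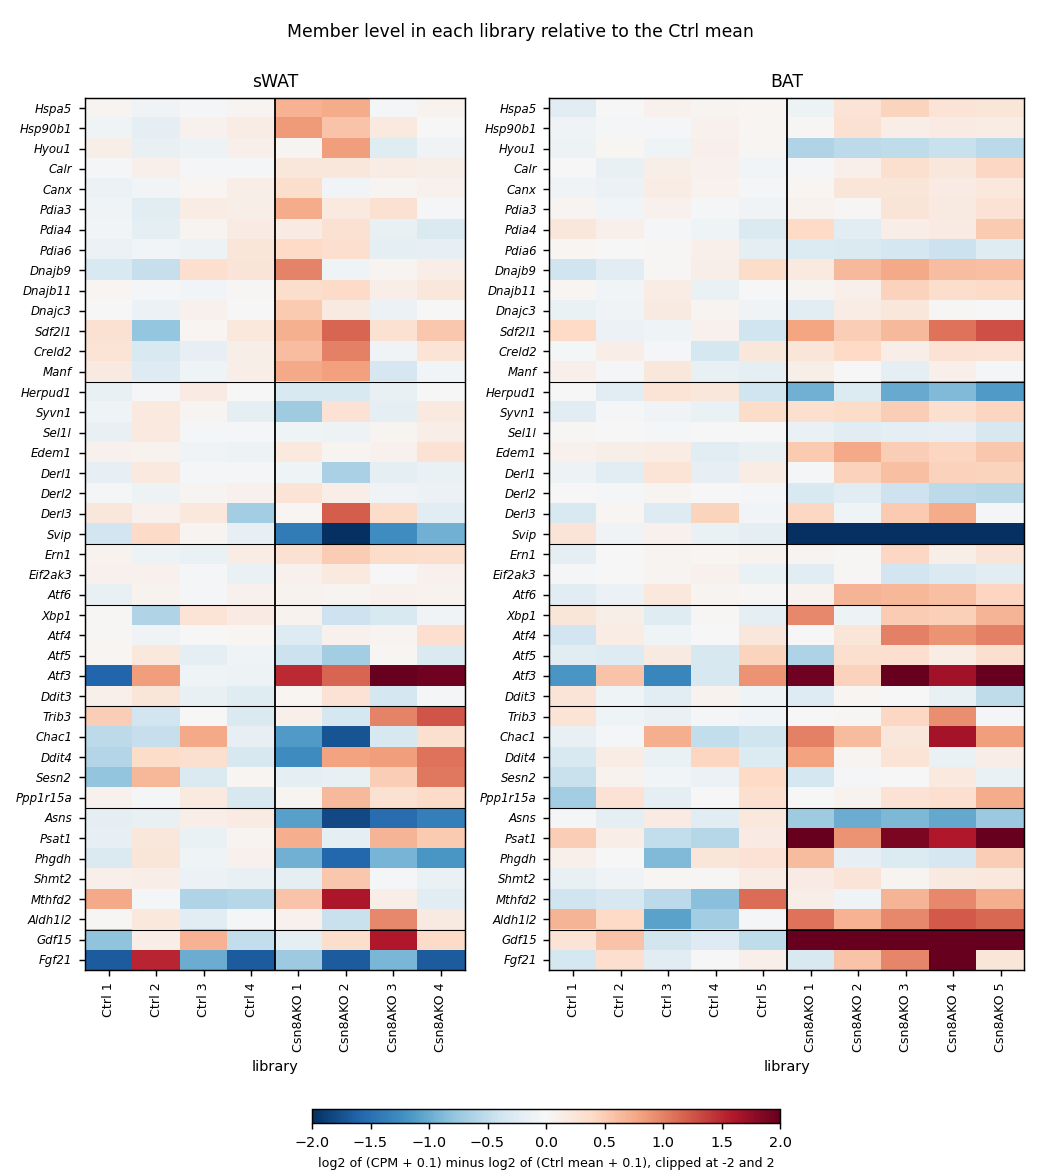
Level of the 43 members in each sWAT (left) and BAT (right) library as the log2 of CPM plus 0.1 minus that of the Ctrl mean, with colors clipped at -2 and 2, black lines between the roles and between Ctrl and Csn8AKO. The chaperones at the top are mostly red in sWAT Csn8AKO 1 and 2 and pale in Csn8AKO 3 and 4, while Svip and Asns are blue in all 9 Csn8AKO libraries and Gdf15 is dark red in all 5 BAT Csn8AKO libraries.

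Most ATF4 targets of BAT had a log2 change above 0, that of 5 of the 6 enzymes and of 4 of the 5 signaling targets. Of the enzymes, Psat1 and Aldh1l2 rose and Asns fell. Mthfd2 with 0.55 (adjusted p = 0.293), Shmt2 with 0.18 (adjusted p = 0.101) and Phgdh were not called. Asns was at 55.4, 49.8, 63.2, 48.5 and 64.9 CPM in Ctrl and at 34.5, 28.2, 30.2, 27.6 and 33.7 CPM in Csn8AKO. The groups do not overlap, and the log2 change was -0.87 (SE 0.10, adjusted p = 2.68e-05). Psat1 was at 3.65, 2.83, 1.81, 1.70 and 2.90 CPM in Ctrl and at 13.1, 4.89, 9.73, 8.02 and 15.3 CPM in Csn8AKO. All the Csn8AKO libraries were above all the Ctrl libraries, and the log2 change was 1.99 (SE 0.31, adjusted p = 4.01e-04). It was 1.56 (adjusted p = 0.00175) without Csn8AKO 1 and 5, the libraries highest in Psat1.

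Aldh1l2 rose by 1.13 (SE 0.31, adjusted p = 0.0130) from 0.403 to 1.60 CPM in Ctrl to 1.62 to 2.37 CPM in Csn8AKO, with an adjusted p of 0.0617 without Csn8AKO 1 and 5. Of its exon bases, 14.1% also lie in a gene on the opposite strand, so reads there may be shared or dropped. Phgdh, lower in sWAT, was at 7.91 to 18.0 CPM in BAT Ctrl and 11.6 to 22.8 CPM in BAT Csn8AKO, with a log2 change of 0.13 and an interval of -0.42 to 0.68. Of the 5 signaling targets, Chac1 rose by 1.02 (adjusted p = 0.0178, and 0.0594 without Csn8AKO 4), with an adjusted p under 0.05 in 14 of 18 alternatives. The other 4 had values from -0.06 for Sesn2, a leucine sensor, to 0.33 for Trib3, with 0 called and 0 at an unadjusted p under 0.05.

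The largest log2 change among the members tested in BAT was in a hormone. Gdf15 (ENSMUSG00000038508, chr8:70629393-70632456) was at 0.259, 0.339, 0.129, 0.148 and 0.108 CPM in BAT Ctrl and at 4.45, 2.21, 12.2, 22.4 and 8.59 CPM in BAT Csn8AKO. The lowest Csn8AKO value was well above the highest Ctrl value, and among the Csn8AKO mice Csn8AKO 4 was highest and Csn8AKO 2 lowest. The log2 change was 5.67 (SE 0.71, 95% interval 4.07 to 7.27, adjusted p = 2.75e-04), and without Csn8AKO 1 and 5 it was 5.98 (adjusted p = 0.00112). Ctrl libraries held 6 to 20 reads of Gdf15, and the gene passed the filter on low counts through the Csn8AKO group. The size of the change is thus loosely set, and its adjusted p is no independent support. Gdf15 was called in 18 of 18 alternatives, which refit the same counts. Svip, Asns, Hyou1, Psat1, Edem1, Sdf2l1, Herpud1 and Atf6 were also called in all 18. Fgf21 was at 0.0776, 0.186, 0.0968, 0.129 and 0.144 CPM in Ctrl and at 0.0843, 0.237, 0.344, 0.835 and 0.167 CPM in Csn8AKO, too few reads to test. Csn8AKO 4 had the highest level of Fgf21, as it did of Gdf15, Chac1 and Trib3. It also had the lowest level of Asns, and Psat1 and Atf3 were highest in Csn8AKO 5.

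Most members of both arms of the response had a log2 change above 0 in BAT, where 11286 of the 22345 genes tested did. Of the 22 chaperones and degradation genes 16 were above 0, 6 rose and 6 fell, with a median log2 change of 0.20. Of the 12 tested ATF4 targets and hormones 10 were above 0, 4 rose and 1 fell, with a median of 0.32. These counts include Gdf15, which passed the filter on low counts through the Csn8AKO group. The medians of the signaling targets and of the enzymes, which leave it out, were 0.31 and 0.36. Over all genes tested in BAT, 16.0% rose and 15.8% fell. The difference of the medians was not tested. Macrophage and fibroblast markers rose in the same BAT libraries, and the adipocyte markers summed to 7800 to 9120 CPM in Ctrl and 8310 to 10200 CPM in Csn8AKO, with 1 of 8 called higher and 1 lower. Their part in the changes of the members was not tested.

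The interaction of genotype and tissue, fitted over all 18 libraries, asked of each gene whether its change differed between BAT and sWAT. Of 22509 genes tested, 2.36% were called, and 1 of the members tested was called, Gdf15, whose change was 4.87 log2 units greater in BAT (SE 0.92, adjusted p = 0.00790). This size rests on few reads, 6 to 16 a library in sWAT Ctrl, 10 to 27 in sWAT Csn8AKO and 6 to 20 in BAT Ctrl, and the gene had too few to test in sWAT alone. Unadjusted p was under 0.05 for 16 members and for 3439 of all genes tested. DESeq2 called 6 members, and of all genes it called 737 with a higher and 355 with a lower change in BAT than in sWAT. Those nearest to the threshold were Psat1 with 1.51 (adjusted p = 0.0593), Phgdh with 1.25 and Svip with -1.45 (both adjusted p = 0.0604), and Hyou1 with -0.74 (adjusted p = 0.0704). The number called was 2 without sWAT Ctrl 1, sWAT Ctrl 2, sWAT Csn8AKO 3, sWAT Csn8AKO 4 or BAT Ctrl 1, 3 without sWAT Csn8AKO 2 and 4 without BAT Csn8AKO 2. Of the 41 members tested in both tissues, 1 was called in both, Asns, which fell in each. In BAT and not in sWAT 19 were called, and 1, Phgdh, was called in sWAT and not in BAT. Calls were also more frequent in BAT over all genes, with 16.0% higher and 15.8% lower, beside 2.30% and 3.00% in sWAT. For Asns the difference between tissues was 0.54 (SE 0.20, adjusted p = 0.176).

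**Figure D4:**
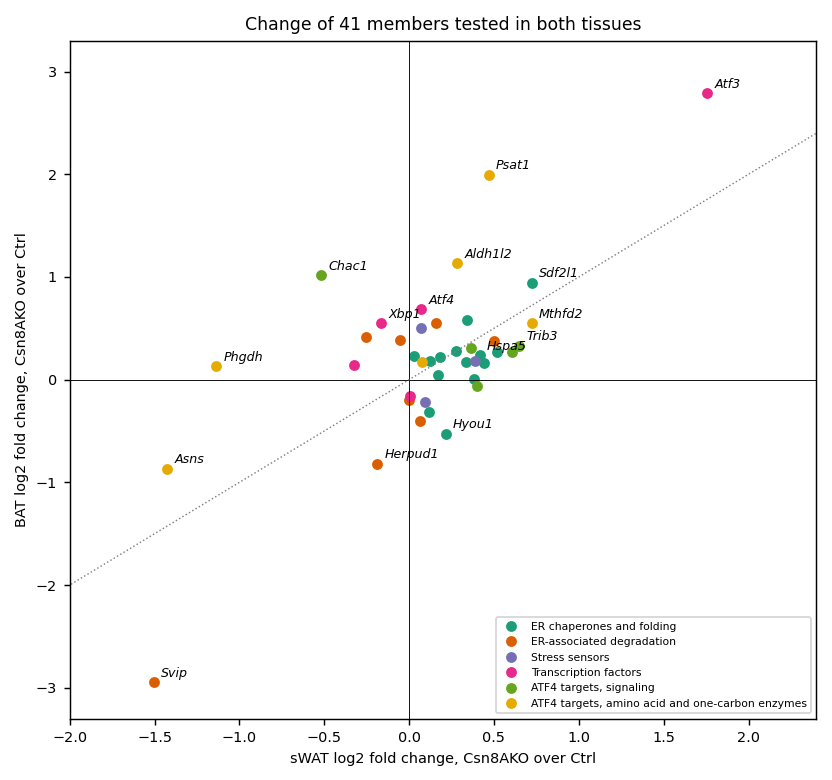
Log2 fold change in Csn8AKO over Ctrl of the 41 members tested in both tissues, sWAT on the horizontal and BAT on the vertical axis, colored by role; the dotted line marks equal change and the axes have different ranges. Svip and Asns lie at the lower left and Atf3 at the upper right, Phgdh lies near 0 in BAT, and Gdf15 is absent because it was not tested in sWAT.

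The pathway was also read through 78 further genes of the same processes. In sWAT 1 rose, Erp29, an ER folding factor, with a log2 change of 0.54 (SE 0.13, adjusted p = 0.0368), and 0 fell, where 2.30% of all genes tested rose and 3.00% fell. Its call was lost in 6 of the 8 fits that left out 1 library, with adjusted p up to 0.124, that without Ctrl 3. In BAT 22 rose and 7 fell, where 16.0% of all genes tested rose and 15.8% fell. The 5 of smallest adjusted p were Cars, the cysteine tRNA synthetase, with 0.88 (adjusted p = 4.57e-06), Pdia5, a disulfide isomerase, with -1.79 (adjusted p = 1.07e-05), Slc7a5, an importer of large amino acids, with 2.15 (adjusted p = 1.17e-04), P4hb, the founding disulfide isomerase, with 0.67 (adjusted p = 4.40e-04), and Fkbp11, an ER prolyl isomerase, with 1.48 (adjusted p = 5.53e-04).

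By process in BAT, 13 of 24 other ATF4 targets rose and 3 fell, 4 of 20 other folding and transport genes rose and 2 fell, 5 of 20 other sensors, kinases and factors rose and 2 fell, and 0 of 14 other degradation genes were called in either direction, 2 of them at an unadjusted p under 0.05. The counts of the folding and transport genes and of the sensors, kinases and factors lie near the 16.0% and 15.8% of all genes. The median log2 change of the other ATF4 targets was 0.41 and that of the other degradation genes -0.05, beside 0.01 for all genes tested. These lists were chosen with earlier results of these data known, so the contrast with all genes is no independent test. In sWAT the medians of the 4 groups were 0.01 for the other ATF4 targets, 0.17 for folding and transport, -0.09 for degradation and -0.04 for sensors, kinases and factors.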

How the data were processed

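The authors made 18 libraries after removal of ribosomal RNA, aligned the paired reads with STAR 2.7.9a to an Ensembl GRCm38 genome and counted unique, unambiguous reads per gene with featureCounts. Whether strand was used is not given in the sources used here. The deposited count of each of 55487 genes was analysed. Deposited CPM, FPKM and TPM values follow from these counts and were left out of the tests.

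Genotypes were compared within each tissue with edgeR 4.0.16 in R 4.3.3 (TMM factors, filterByExpr with a minimum count of 10 and total of 15, robust quasi-likelihood fits, Benjamini-Hochberg adjustment over all genes tested, called at an adjusted p under 0.05). A second fit over all libraries tested the interaction with tissue. The tests were two-sided and were tested on simulated data. DESeq2 1.42.0 was an alternative, and was the tool of the authors. Each library is taken as 1 mouse, as in the study; the p-values measure the spread between these libraries. Within a group no 2 libraries agreed within sampling noise. Ddit3 has a second, short entry within its exons that held 0 reads in all libraries.

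The members and lists were chosen with earlier results of these data known. Values in every library were given for Hspa5, Xbp1, Atf4, Ddit3, Gdf15 and Fgf21 and for up to 10 other called members per tissue of smallest adjusted p, and up to 5 further pathway genes were named per tissue. Fits without libraries that stood apart were added after seeing the data.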

Additional observations from a re-analysis of the deposited data

Results flagged for a closer look

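The log2 change of Gdf15 was 4.87 greater in BAT than in sWAT, by the test of the interaction itself (edgeR, adjusted p = 0.00790). It lay between 4.32, without BAT Csn8AKO 4, and 5.41, without sWAT Csn8AKO 3, when libraries were left out in turn. In sWAT Ctrl, sWAT Csn8AKO and BAT Ctrl the gene had at most 27 reads a library, too few to test in sWAT alone, so the size of the difference is loosely set. The tissues also differed in age.

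Among 48 sets of library values, 1 for each gene given by library and each group, 3 held a library far from the others of its group, with a gap to its nearest neighbour above the 95% critical value of Dixon's test. Chance alone flags about 1 in 20 groups. Fgf21 in sWAT was at 0.810 CPM in Ctrl 2 and at most 0.0592 CPM in the other Ctrl libraries, a gap of 0.927 of the range. Hspa5 in BAT was at 206 CPM in Ctrl 1 and between 241 and 255 CPM in the other Ctrl libraries, a gap of 0.714 of the range. Herpud1 in BAT was at 71.5 CPM in Csn8AKO 2 and between 39.3 and 46.7 CPM in the other Csn8AKO libraries, a gap of 0.770 of the range.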

How the results depend on the processing

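Of 699 repeats of the 39 results for single genes, 611 kept the direction and the side of the threshold, 61 lost the call, 16 gained it and 11 changed sign. All 11 were Atf4 or Ddit3 in sWAT, whose changes were near 0. With library size alone Atf4 was -0.0533 and Ddit3 -0.00835, Ddit3 was -0.0205 without a filter and -0.00506 when the 4 groups were fitted together, and among fits without 1 library Atf4 lay between -0.0436 and 0.165 and Ddit3 between -0.11 and 0.10. Atf4 was -0.0985 without Csn8AKO 3 and 4, and Ddit3 -0.0691 without Ctrl 1 and Csn8AKO 2.

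The members called higher in sWAT were 1 with library size alone, 2 with DESeq2, 1 when the 4 groups were fitted together, 2 without Ctrl 1 and Csn8AKO 2, and 0 to 1 without 1 library. Those called lower were 1 without Csn8AKO 3 and 4. In BAT, library size alone shifted the median of all genes by 0.14, with 4183 genes called higher and 2087 lower in place of 3585 and 3536. It gave 4 members called lower and a median of 0.33 for chaperones and degradation genes, and shifted Hspa5 to 0.36 (adjusted p = 0.0415). A joint fit of the 4 groups gave 9 members called higher. Without Csn8AKO 1 and 5 the median of ATF4 targets and hormones was 0.52, and in sWAT without Csn8AKO 3 and 4 it was -0.0219 and that of chaperones and degradation genes 0.35. The members whose change differed between tissues were 4 with library size alone, 6 with DESeq2, 3 without ribosomal RNA genes and 1 to 4 without 1 library. The causes were not tested.

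The labels give the genotypes the same replicate numbers, but deviations of same-numbered libraries correlated between -0.43 and 0.25 in sWAT and between -0.14 and 0.17 in BAT, so the numbers were not taken to pair the mice. With a replicate block, 0 members were called higher and 1 lower in sWAT, 12 higher and 6 lower in BAT, and 1 by the interaction. With the block Phgdh in sWAT (adjusted p = 0.0587) and Atf3 (0.0554), Chac1 (0.0559) and Sel1l (0.0579) in BAT were no longer called, nor was Erp29 in sWAT (0.165). Gdf15 and Fgf21 in sWAT and Fgf21 in BAT did not pass the filter on low counts and were not tested.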
